A study of Mus musculus with 9 samples.

Results

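The cell cycle and proliferation genes described here are 39 genes whose products copy DNA or carry cells through mitosis, and which are read as a sign of dividing cells in bulk tissue RNA. They were taken by gene symbol from a fixed list, out of 22587 genes with a read count in every library, and all 39 were found. Of the 39, 28 act mainly in G2 and mitosis and are called mitotic genes below, and 11 act mainly in replication or at its onset and are called S-phase genes. All 39 passed the filter on low counts, which left 21287 genes for testing.

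RNA of whole eyeballs was sequenced from wild-type female BALB/C mice in 3 groups of 3 libraries. T.chuii mice were injected intraperitoneally with scopolamine, an antagonist of muscarinic acetylcholine receptors, and were fed Tetraselmis chuii, a green microalga, at 300 mg/kg. DES mice were injected with scopolamine and given water, and CON mice were not injected and were given water. Treatment ran for 2 weeks from 6 weeks of age, tissue age is given as postnatal day 56, and 15 mice entered the study. Which animal a library came from is not stated in the labels, and every p-value below therefore reflects variation among libraries that may be technical in part.

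Cells that commit to division switch on replication genes through E2F factors and then, before mitosis, a second wave of genes through B-Myb, FoxM1 and the MuvB core complex, which reads the cell cycle homology region (CHR) in their promoters. In the adult eye the epithelium of the cornea and its limbus renews itself by division throughout life, while photoreceptors and other retinal neurons no longer divide. In bulk tissue, fewer dividing cells and less of these RNAs per cell cannot be told apart.

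Library totals lay between 39.1 and 64.6 M counted reads, with the highest in CON 2. The mitotic genes had between 50 and 6147 reads per library and the S-phase genes between 110 and 8412, so counting error was small beside the differences between libraries. Markers of corneal epithelium and of rods were present in every library, but in unequal amounts. The ratio of the summed CPM (reads per 1 M library reads) of 14 corneal epithelial genes to that of 13 rod genes was 4.48, 0.355 and 0.522 in T.chuii libraries 1 to 3, 2.86, 0.50 and 0.768 in DES libraries and 0.813, 4.34 and 0.944 in CON libraries. T.chuii 1, DES 1 and CON 2 thus stood apart from the other 6 libraries, and results below are also given without these 3 cornea-rich libraries. The 9 lens genes measured, of 13 listed, had a summed level of 11760 to 60105 CPM in T.chuii libraries, 386 to 43899 in DES libraries and 257 to 286 in CON libraries, so lens RNA was scarce in all CON libraries and in DES 2. Skeletal muscle markers summed to 3308 to 16306 CPM in T.chuii libraries, 1439 to 8050 in DES libraries and 825 to 2280 in CON libraries.

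Levels can be compared between genes only per transcript length, for which the deposited FPKM (fragment counts scaled by transcript length and library size) were used. The median FPKM over the 9 libraries ran from 0.603 to 37.2 among mitotic genes and from 1.44 to 95.5 among S-phase genes, with medians of 5.73 and 7.57 over each set, against 3.22 over all genes tested. Pcna, which encodes the sliding clamp of the replication fork, was the most abundant at 95.5 FPKM. Ube2c, the ubiquitin-conjugating enzyme of the anaphase-promoting complex, followed at 37.2 FPKM. At the low end stood Mybl2, which encodes B-Myb, at 0.603 FPKM.

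Ki-67, the nuclear protein that coats mitotic chromosomes and is the usual stain for dividing cells, is encoded by Mki67 (gene ID 17345, chr7:135689784-135716450, GRCm38.p6). Mki67 had 17.9, 10.7 and 11.1 CPM in T.chuii libraries, 26.1, 15.4 and 11.8 CPM in DES libraries and 8.87, 27.3 and 13.6 CPM in CON libraries. The groups overlapped, and the highest library of each was the cornea-rich one. Top2a, the topoisomerase that untangles sister chromatids (gene ID 21973, chr11:98992947-99024199), had 39.3, 15.5 and 27.1 CPM in T.chuii libraries, 52.2, 33.6 and 35.3 CPM in DES libraries and 23.0, 69.6 and 29.6 CPM in CON libraries. T.chuii 2 was the lowest and CON 2 the highest of all 9.

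Cyclin B1 and the kinase it activates for entry into mitosis are encoded by Ccnb1 (gene ID 268697, chr13:100778739-100786486) and Cdk1 (gene ID 12534, chr10:69335146-69352912). Ccnb1 had 43.6, 13.6 and 22.6 CPM in T.chuii libraries, 67.6, 28.5 and 49.1 CPM in DES libraries and 24.8, 68.5 and 32.9 CPM in CON libraries. Cdk1 had 44.7, 14.7 and 23.5 CPM in T.chuii libraries, 41.4, 25.1 and 45.8 CPM in DES libraries and 22.2, 45.5 and 29.8 CPM in CON libraries. For both genes the spread within a group was as wide as the difference between groups, and T.chuii 2 was again the lowest library.

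Among S-phase genes, Mcm2 encodes a subunit of the MCM helicase that opens DNA at the replication fork (gene ID 17216, chr6:88883474-88898780). It had 25.4, 12.8 and 15.9 CPM in T.chuii libraries, 25.6, 16.7 and 18.6 CPM in DES libraries and 17.9, 60.6 and 22.1 CPM in CON libraries. CON 2 stood alone, and the other 8 libraries lay within 12.8 to 25.6 CPM. Pcna (gene ID 18538, chr2:132249286-132253180) behaved differently, with 139, 107 and 140 CPM in T.chuii libraries, 114, 116 and 175 CPM in DES libraries and 106, 137 and 134 CPM in CON libraries. Its highest library, DES 3, was 1.65 times its lowest.

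**Figure D1:**
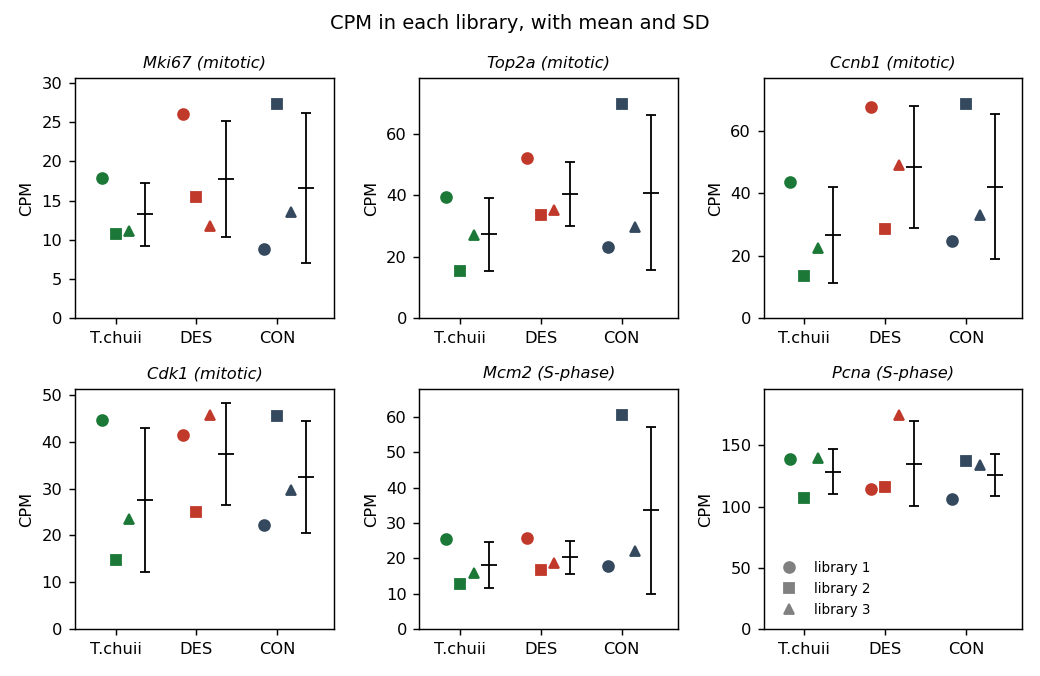
CPM (vertical axis, from 0) of 4 mitotic and 2 S-phase genes in each library of the T.chuii, DES and CON groups. Coloured symbols are libraries 1 to 3, and black bars are the group mean and SD (n = 3). The groups overlap for every gene shown, CON 2 lies far above the other CON libraries for Mki67, Top2a, Ccnb1 and Mcm2, and Pcna varies least.

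Most of the 39 genes shared 1 pattern over the libraries. CON 2 was the highest of the 9 libraries for 21 of 28 mitotic and 10 of 11 S-phase genes, against 29.2% of all genes tested. T.chuii 2 was the lowest for 23 of 28 mitotic and 10 of 11 S-phase genes, against 14.3% of all genes. The highest library was a median of 4.43 times the lowest among mitotic genes and 3.54 times among S-phase genes, against 2.41 times over all genes tested. Mcm6, another MCM helicase subunit, varied most, at 8.11 times, with 52.6, 10.0 and 20.1 CPM in T.chuii libraries, 35.6, 19.4 and 31.1 CPM in DES libraries and 23.4, 81.4 and 30.1 CPM in CON libraries. Kif20a, a kinesin of the central spindle, varied by 8.08 times, the widest among mitotic genes.

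A few members stood outside that pattern. Bub1b, the spindle checkpoint protein BubR1, varied by only 2.18 times, with 15.8, 18.2 and 23.7 CPM in T.chuii libraries, 23.1, 27.1 and 23.9 CPM in DES libraries and 18.6, 34.4 and 29.1 CPM in CON libraries. T.chuii 1, which was the highest T.chuii library for most members, was its lowest of all 9. Cks2, a small subunit that docks on Cdk1, had 33.4, 10.2 and 17.4 CPM in T.chuii libraries, 26.1, 15 and 41.2 CPM in DES libraries and 21.0, 20.2 and 22.6 CPM in CON libraries. CON 2 was the lowest CON library for Cks2, and DES 3 the highest of the 9.

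**Figure D2:**
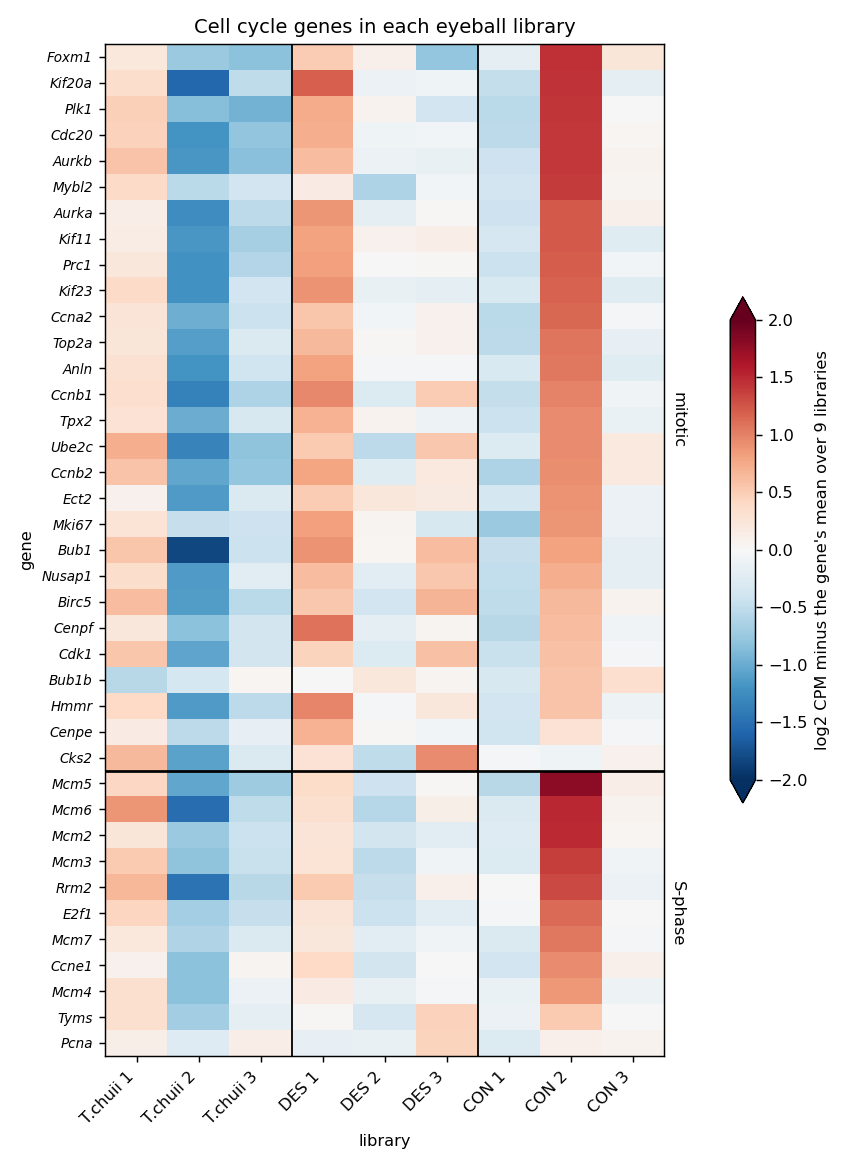
Level of each of the 39 genes (rows, mitotic above the line and S-phase under it) in each library (columns, in the order T.chuii, DES, CON), as log2 CPM minus the gene's own mean over the 9 libraries. Red is above and blue under the mean. CON 2 is red for nearly all rows and T.chuii 2 blue, with Bub1b, Cks2 and Pcna as rows that differ.

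The shared pattern went with the corneal content of the libraries. The 3 cornea-rich libraries, T.chuii 1, DES 1 and CON 2, were the highest of their groups for 23 of 28 mitotic and 9 of 11 S-phase genes, against 20.0% of all genes tested. All 3 lay above all of the other 6 libraries for 18 mitotic and 8 S-phase genes, but the share of all genes with this stricter pattern was not counted. The mean log2 level of the mitotic genes, set against each gene's mean over 9 libraries, was 0.34, -1.05 and -0.49 in T.chuii libraries, 0.69, -0.11 and 0.12 in DES libraries and -0.42, 0.96 and -0.03 in CON libraries. That of the S-phase genes was 0.38, -0.86 and -0.32 in T.chuii libraries, 0.24, -0.36 and 0.05 in DES libraries and -0.24, 1.10 and 0.01 in CON libraries.

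The summed CPM of the 14 corneal genes was 45579, 12276 and 19853 in T.chuii libraries, 49970, 21140 and 28941 in DES libraries and 26836, 80234 and 32703 in CON libraries. Set against that sum, the 28 mitotic genes came to 1.59%, 2.23% and 2.07% in T.chuii libraries, 1.82%, 2.45% and 2.27% in DES libraries and 1.55%, 1.37% and 1.70% in CON libraries. By this measure T.chuii and DES libraries overlapped, while the 3 DES libraries lay above the 3 CON libraries. The gap was narrow, from 1.70% in CON 3 to 1.82% in DES 1, and the lowest value was in CON 2, which had the largest corneal sum. How often other genes set against this sum show the same order was not counted. The 11 S-phase genes came to 1.07%, 1.92% and 1.68% of the corneal sum in T.chuii libraries, 0.851%, 1.47% and 1.51% in DES libraries and 1.22%, 0.913% and 1.17% in CON libraries, with all groups overlapping.

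Many promoters of the set hold the elements named above. Mki67, Top2a, Mcm5 and Mcm6 were highest in CON 2, while Cdk1 was highest in DES 3. The promoters of these 5 genes are printed as examples of how mitotic and S-phase genes can differ in sequence. Each is the RefSeq window of 250 bases before to 50 bases after the transcript start on GRCm38.p6, written 5′ to 3′ along the gene. Capitals mark matches on either strand to the CHR (TTTGAA), the NF-Y box (CCAAT) and 2 E2F motifs (TTTCCCGC and TTTGGCGC). These motifs do not overlap in the windows shown.
Mki67 (chr7:135716330-135716629, minus strand): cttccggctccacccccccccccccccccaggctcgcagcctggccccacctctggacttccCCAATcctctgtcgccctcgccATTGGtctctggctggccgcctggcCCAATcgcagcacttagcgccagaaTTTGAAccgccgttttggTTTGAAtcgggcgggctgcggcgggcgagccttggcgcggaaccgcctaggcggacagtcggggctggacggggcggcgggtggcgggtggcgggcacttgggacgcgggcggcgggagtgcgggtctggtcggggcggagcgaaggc
Top2a (chr11:99024140-99024439, minus strand): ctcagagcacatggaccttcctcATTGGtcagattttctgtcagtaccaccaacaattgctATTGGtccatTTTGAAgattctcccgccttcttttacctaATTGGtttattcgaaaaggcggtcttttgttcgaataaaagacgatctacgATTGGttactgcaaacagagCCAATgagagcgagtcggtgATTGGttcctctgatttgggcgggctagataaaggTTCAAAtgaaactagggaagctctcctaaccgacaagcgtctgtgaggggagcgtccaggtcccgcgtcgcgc
Cdk1 (chr10:69352863-69353162, minus strand): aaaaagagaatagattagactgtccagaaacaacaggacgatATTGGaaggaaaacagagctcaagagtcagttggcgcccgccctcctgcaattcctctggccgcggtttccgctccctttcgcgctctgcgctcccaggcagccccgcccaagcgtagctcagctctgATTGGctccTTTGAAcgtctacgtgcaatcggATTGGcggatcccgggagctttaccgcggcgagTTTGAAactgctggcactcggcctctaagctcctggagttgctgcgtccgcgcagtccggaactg
Mcm5 (chr8:75109259-75109558, plus strand): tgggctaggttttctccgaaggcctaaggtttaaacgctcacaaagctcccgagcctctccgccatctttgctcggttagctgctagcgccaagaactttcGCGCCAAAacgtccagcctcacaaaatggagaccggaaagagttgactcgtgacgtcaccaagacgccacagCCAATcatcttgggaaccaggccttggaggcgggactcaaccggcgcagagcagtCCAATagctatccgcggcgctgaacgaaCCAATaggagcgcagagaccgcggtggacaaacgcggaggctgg
Mcm6 (chr1:128359656-128359955, minus strand): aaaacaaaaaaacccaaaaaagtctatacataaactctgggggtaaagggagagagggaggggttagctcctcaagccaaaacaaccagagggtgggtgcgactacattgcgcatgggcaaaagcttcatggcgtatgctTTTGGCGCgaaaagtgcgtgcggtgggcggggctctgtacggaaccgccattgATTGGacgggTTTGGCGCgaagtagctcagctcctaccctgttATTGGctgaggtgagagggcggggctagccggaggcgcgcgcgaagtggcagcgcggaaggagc

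Mki67, Top2a and Cdk1 each held 2 CHR matches and at least 3 NF-Y boxes, and no E2F match. Mcm5 held 1 E2F match and 3 NF-Y boxes, and Mcm6 held 2 of each, with no CHR match in either. RefSeq windows were matched for 33 of the 39 genes, 23 mitotic and 10 S-phase; Ccna2, Aurkb, Kif20a, Tpx2, Foxm1 and Mcm4 had none in the table used. The CHR was present in 16 of 23 mitotic promoters (69.6%) and 1 of 10 S-phase promoters, that of Mcm2, against 15.8% of the 14726 tested genes with a promoter. CHR and NF-Y box stood together in 15 of 23 mitotic promoters (65.2%), against 6.51% of all. An E2F match was present in 4 of 10 S-phase promoters (40.0%), those of Mcm3, Mcm5, Mcm6 and Mcm7, in 0 of 23 mitotic promoters, and in 2.74% of all. NF-Y boxes were present in 82.6% of mitotic and 70.0% of S-phase promoters, against 41.9% of all.

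The same contrast was seen in genes outside the set. Of 46 other mitotic genes, 38 had a promoter in the table, and 71.1% of those held a CHR. Of 41 other DNA replication genes, 32 had one, of which 9.38% held a CHR and 28.1% an E2F match. A match to these letters is a description of the window and not a measured binding site.

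**Figure D3:**
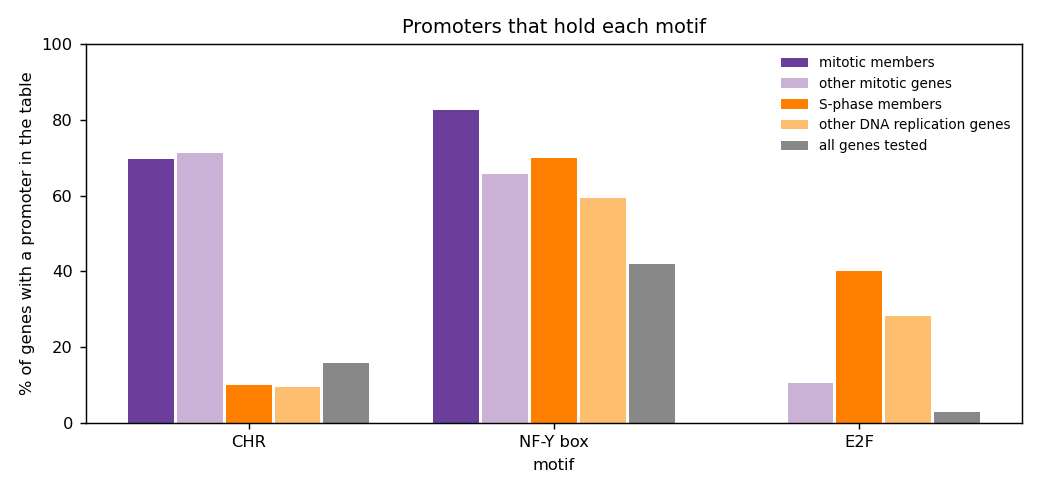
Share of genes (vertical axis, % of genes with a RefSeq promoter) whose window held the CHR, the NF-Y box or an E2F motif, for the mitotic and S-phase genes of the set, 2 wider lists and all genes tested. The CHR bars are high for both mitotic lists (69.6% and 71.1%), and the E2F bars are highest for the replication genes of the set (40.0%).

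The comparison of T.chuii with DES libraries asks what feeding the microalga changed in mice that had all received scopolamine. All 28 mitotic genes had a fitted change below 0, the side of lower values in T.chuii libraries, with a median log2 fold change of -0.64. The range was from -1.08 for Bub1 to 0.00 for Mybl2. Mybl2 was in effect unchanged, with means of 2.57 CPM in T.chuii and 2.54 CPM in DES libraries. All 11 S-phase genes were below 0 too, with a median of -0.21. Over all genes tested, 54.9% had a change below 0 and the median was -0.03. None of the 39 genes passed the test: 0 of 21287 genes (0%) had an adjusted p under 0.05 (limma-voom, Benjamini-Hochberg), and no member had an unadjusted p under 0.05, as 233 of all genes did.

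Members with the smallest p were spindle and cytokinesis genes. Bub1, a kinase of the spindle checkpoint, had 5.66, 1.09 and 2.87 CPM in T.chuii libraries against 7.24, 3.96 and 5.96 CPM in DES libraries. Its log2 fold change was -1.08 ± 0.55 (SE) with an adjusted p of 1.0, and T.chuii 1 lay within the DES range. Hmmr, a spindle-associated hyaluronan receptor, had 16.7, 5.78 and 8.83 CPM in T.chuii libraries against 24.8, 12.4 and 14.8 CPM in DES libraries. Its log2 fold change was -0.81 ± 0.42.

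Ect2, which activates RhoA for cytokinesis, had 13.0, 5.61 and 10.1 CPM in T.chuii libraries against 17.4, 14.4 and 13.9 CPM in DES libraries. It was the only member whose groups did not overlap, as also held, in the same direction, for 2.49% of all genes, and its log2 fold change was -0.75 ± 0.39 with an adjusted p of 1.0. Ccnb1 averaged 26.6 ± 15.4 CPM in T.chuii and 48.4 ± 19.5 CPM in DES libraries (SD, n = 3 each), a log2 fold change of -0.94 ± 0.49. For Top2a the log2 fold change was -0.64 ± 0.44, for Cdk1 -0.54 ± 0.41 and for Mki67 -0.41 ± 0.43. All of these differences were within about 2 standard errors of 0.

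S-phase genes lay closer to 0 in this comparison. Rrm2, the small subunit of ribonucleotide reductase, had 91.5, 20.7 and 39.3 CPM in T.chuii libraries against 83.4, 42.0 and 61.7 CPM in DES libraries, a log2 fold change of -0.52 ± 0.53. Tyms, thymidylate synthase, had a log2 fold change of -0.23 ± 0.31 and Mcm5 of -0.43 ± 0.58. Mcm2 was at -0.21 ± 0.46 and Pcna at -0.05 ± 0.24. Without T.chuii 2 the median of the S-phase genes was 0.09, with 1 of 11 below 0, and that of the mitotic genes was -0.27, while without T.chuii 1 the mitotic median was -1.0 and the S-phase median -0.47. The direction of the S-phase median thus rested on T.chuii 2.

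Libraries on the same side of the corneal-to-rod split were then set side by side, but their corneal content was not equal. The corneal sums were 12276 and 19853 CPM in T.chuii 2 and 3, below the 21140 and 28941 CPM in DES 2 and 3. The corneal-to-rod ratio was 4.48 in T.chuii 1 and 2.86 in DES 1. Among the libraries with a low corneal-to-rod ratio, both T.chuii libraries lay below both DES libraries for 24 of 28 mitotic and 5 of 11 S-phase genes, against 13.5% of all genes tested. Between the cornea-rich libraries, T.chuii 1 lay below DES 1 for 23 of 28 mitotic but 3 of 11 S-phase genes, against 58.7% of all genes. With the 3 cornea-rich libraries left out, the mitotic median was -0.83, and 21 of 28 mitotic and 3 of 11 S-phase genes had an unadjusted p under 0.05, as 5.52% of all genes did. With the corneal-to-rod ratio as a covariate the mitotic median was -0.57, and 19 of 28 mitotic and 0 of 11 S-phase genes had an unadjusted p under 0.05, against 4.28% of all genes. No member had an adjusted p under 0.05 in either fit.

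Deviations from the group means correlated between same-numbered T.chuii and DES libraries, at r = 0.55, 0.34 and 0.17. The third value was below the 0.29 of T.chuii 3 with CON 3, so the pairing is uncertain. A fit of these 2 groups with the number as a replicate block was added after the data were seen, and its p-values rest on that pairing. It gave a mitotic median of -0.62 and an S-phase median of -0.19. An unadjusted p under 0.05 was reached by 19 of 28 mitotic and 0 of 11 S-phase genes, against 5.85% of all genes. The smallest adjusted p among the 39 was 0.155, and the fit called 2 genes in all, Mobp and Nmrk2, which are not members and are named after their values were seen. It had 2 residual degrees of freedom, and DES 1 and T.chuii 1 are both cornea-rich.

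DES against CON libraries sets scopolamine-injected against uninjected mice, all given water, so the drug and the injection itself cannot be told apart. The mitotic genes had a median log2 fold change of 0.07, with 19 of 28 above 0, and a range from -0.56 to 0.44. The sign of that median was not stable: it was -0.19 without CON 1, with 22 of 28 below 0, -0.15 without DES 1, with 20 below 0, and -0.06 without CON 3. It was 0.48 without CON 2 and 0.22 without the 3 cornea-rich libraries. Of the S-phase genes 10 of 11 were below 0, with a median of -0.35, against 52.4% below 0 and a median of -0.02 over all genes tested. No member passed the test (0% of all genes did, and 235 had an unadjusted p under 0.05), and no member had DES libraries wholly below CON libraries, as 1.65% of all genes did.

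The lowest p among S-phase genes belonged to E2f1 and Mcm2. E2f1, the factor that switches on replication genes, had 4.61, 2.88 and 3.29 CPM in DES libraries against 3.8, 8.51 and 3.86 CPM in CON libraries, a log2 fold change of -0.52 ± 0.41. For Mcm2 it was -0.55 ± 0.44 and for Mcm3 -0.48 ± 0.47, and Pcna was at 0.09 ± 0.24. Each of E2f1, Mcm2 and Mcm3 was highest in CON 2 by a wide margin. Without CON 2 alone the S-phase median was 0.11, with 2 of 11 genes below 0. Without the 3 cornea-rich libraries, CON 2 among them, it was -0.09, with 8 of 11 below 0. With the corneal-to-rod ratio as a covariate it was -0.14, with 10 of 11 below 0. The S-phase median thus shrank without CON 2, but its sign turned only when CON 2 alone was left out.

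Among mitotic genes, both transcription factors of the mitotic programme lay on the side of the S-phase genes. Mybl2 averaged 2.54 ± 0.665 CPM in DES and 4.13 ± 2.82 CPM in CON libraries, a log2 fold change of -0.56 ± 0.47. Foxm1, which encodes FoxM1, averaged 2.77 ± 1.14 CPM in DES and 4.32 ± 2.69 CPM in CON libraries, a log2 fold change of -0.55 ± 0.49. Without CON 2 alone Mybl2 was at -0.03 and Foxm1 at -0.07. Without the 3 cornea-rich libraries, CON 2 among them, they were at -0.23 and -0.35, and with the corneal-to-rod covariate at -0.40 and -0.37. On the other side of 0 stood Hmmr at 0.34 ± 0.40 and Cenpe, a kinetochore kinesin, at 0.26 ± 0.28. Mki67 was at 0.16 ± 0.42, Top2a at 0.12 ± 0.43, Ccnb1 at 0.24 ± 0.48 and Cdk1 at 0.20 ± 0.41, each with an adjusted p of 1.0. Among the low-ratio libraries, both DES libraries lay above both CON libraries for 10 of 28 mitotic and 0 of 11 S-phase genes, against 13.3% of all genes tested. Between the cornea-rich libraries, DES 1 lay below CON 2 for 23 of 28 mitotic and 11 of 11 S-phase genes, against 54.1% of all genes.

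T.chuii against CON libraries sets scopolamine with the microalga against no injection, and uses the same libraries as the other 2 comparisons. All 28 mitotic genes and 10 of 11 S-phase genes were below 0, with medians of -0.61 and -0.62, against 55.4% below 0 and a median of -0.04 over all genes. No member passed the test (0% of all genes did, and 912 had an unadjusted p under 0.05), and none had T.chuii libraries wholly below CON libraries, as 2.97% of all genes did. Foxm1 had 3.12, 1.61 and 1.53 CPM in T.chuii libraries against 2.37, 7.39 and 3.20 CPM in CON libraries, a log2 fold change of -0.98 ± 0.50 with an adjusted p of 0.986. T.chuii 1 lay above CON 1 for this gene.

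Of the other members named for this comparison, Aurka, a spindle pole kinase, was at -0.88 ± 0.49, Kif11, the kinesin that separates spindle poles, at -0.80 ± 0.48 and Bub1b at -0.49 ± 0.27. Ccnb1 was at -0.70 ± 0.49, Top2a at -0.52 ± 0.44, Cdk1 at -0.34 ± 0.41 and Mki67 at -0.25 ± 0.43. S-phase genes were as far from 0 as mitotic genes here. Mcm5 had 27.5, 10.0 and 12.6 CPM in T.chuii libraries against 14.0, 71.0 and 22.5 CPM in CON libraries, a log2 fold change of -0.93 ± 0.57. For Rrm2 it was -0.86 ± 0.54 and for Mcm2 -0.76 ± 0.44, while Pcna was at 0.03 ± 0.24. Both low-ratio T.chuii libraries lay below both low-ratio CON libraries for 16 of 28 mitotic and 7 of 11 S-phase genes, against 19% of all genes. The corneal sums of these T.chuii libraries, 12276 and 19853 CPM, were also below the 26836 and 32703 CPM of these CON libraries. Between the cornea-rich libraries, T.chuii 1 lay below CON 2 for 27 of 28 mitotic and 10 of 11 S-phase genes, against 58.9% of all genes. Without CON 2 the medians were -0.21 for mitotic and -0.14 for S-phase genes, and without T.chuii 2 they were -0.21 and -0.23.

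**Figure D4:**
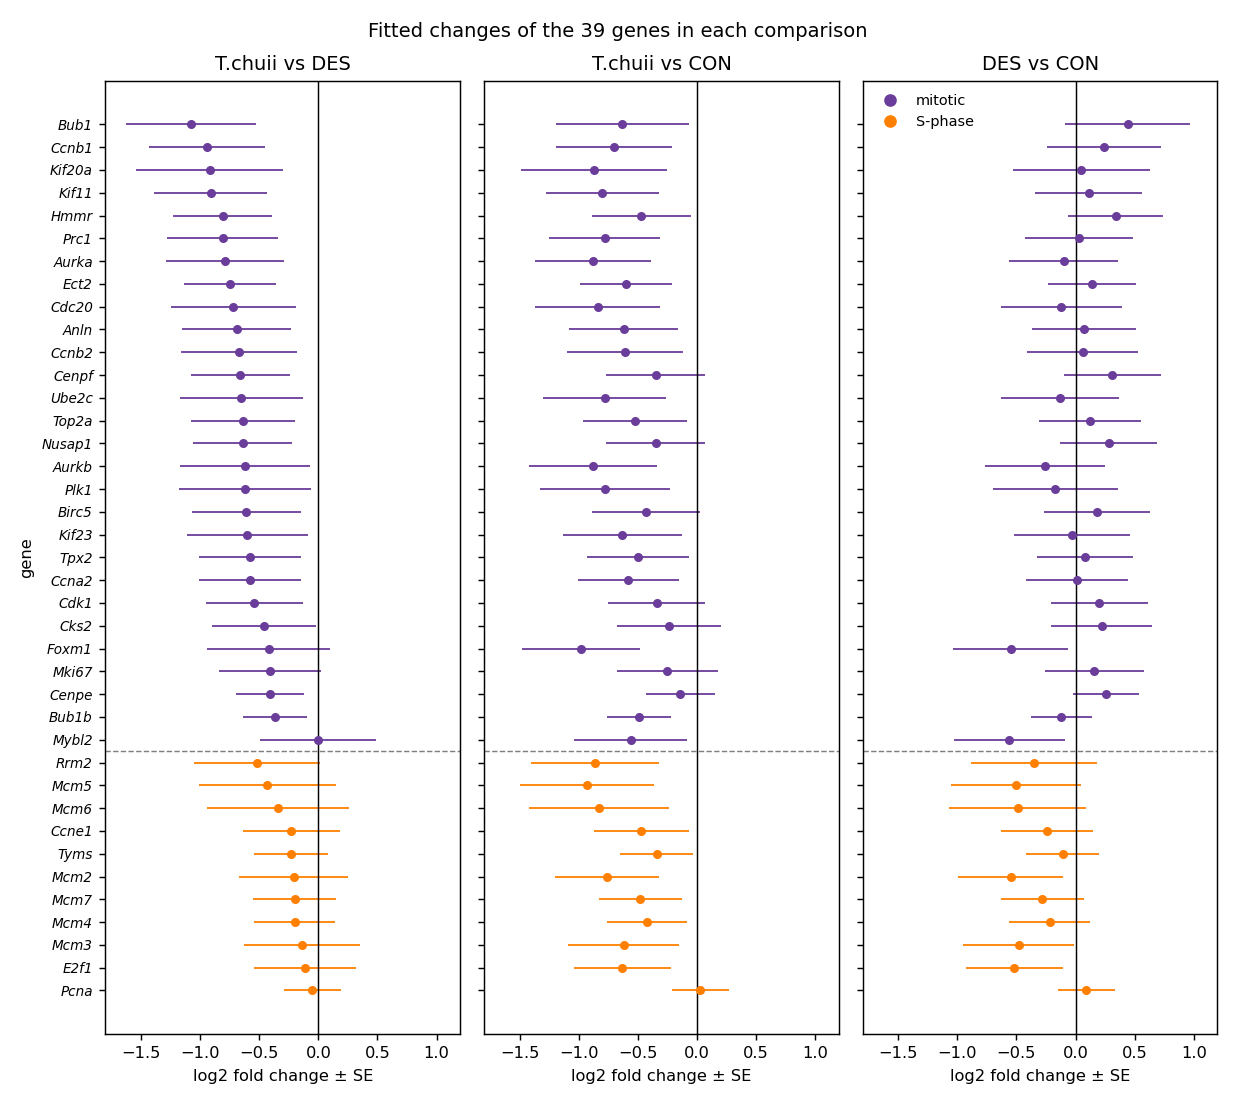
Fitted log2 fold change ± SE (horizontal axis) of each of the 39 genes in the 3 comparisons, with mitotic genes in purple above the dashed line and S-phase genes in orange under it. In T.chuii vs DES the mitotic genes sit further left (median -0.64) than the S-phase genes (median -0.21), in DES vs CON the mitotic genes straddle 0 (median 0.07) with S-phase genes to the left (median -0.35), and in T.chuii vs CON both sets sit near the same place.

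The balance of mitotic to S-phase genes within a library varied less than either level. The mean log2 level of mitotic genes minus that of S-phase genes was -0.05, -0.19 and -0.17 in T.chuii libraries, 0.45, 0.25 and 0.07 in DES libraries and -0.19, -0.14 and -0.04 in CON libraries. All 3 DES libraries lay above 0 and above all 6 other libraries, and T.chuii and CON libraries overlapped. The group means were -0.13 ± 0.08 in T.chuii, 0.26 ± 0.19 in DES and -0.12 ± 0.07 in CON libraries (SD, n = 3 each). This is a description without a test, since the genes were chosen with results of these libraries known.

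Single pairs of genes showed that order in part. All pairs below divide by Mcm2 and reuse genes of the balance, so they are not further support for it. Mcm2, at -0.55 in DES vs CON, had the lowest change of the 11 S-phase genes, so dividing by it favours high DES ratios over CON. Neither Pcna, at 0.09, nor any other gene was used as a divisor, and whether the order holds with another was not tested. The CPM of Top2a divided by that of Mcm2 was 1.55, 1.21 and 1.70 in T.chuii libraries, 2.04, 2.01 and 1.90 in DES libraries and 1.28, 1.15 and 1.34 in CON libraries. All DES ratios were above all others. For Mki67 over Mcm2 the ratios were 0.71, 0.83 and 0.70 in T.chuii libraries, 1.02, 0.92 and 0.64 in DES libraries and 0.49, 0.45 and 0.62 in CON libraries, with DES 3 within the range of the other groups. Ccnb1 over Mcm2 gave 1.72, 1.07 and 1.42 in T.chuii libraries, 2.64, 1.71 and 2.65 in DES libraries and 1.38, 1.13 and 1.49 in CON libraries. DES 2 and T.chuii 1 were almost level on that ratio. For Cdk1 over Mcm2 the values were 1.76, 1.15 and 1.48 in T.chuii libraries, 1.62, 1.5 and 2.47 in DES libraries and 1.24, 0.75 and 1.35 in CON libraries. T.chuii 1 lay above DES 1 and DES 2 on that ratio.

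The median change of mitotic genes minus that of S-phase genes was -0.43 in T.chuii vs DES, and lay between -0.53 and -0.31 over all 19 settings tried. In DES vs CON it was 0.42, and between 0.31 and 0.54 over 18 settings. Some settings could hardly move these differences, because they only dropped a library of the group not compared. The first stayed at -0.43 without any CON library left out in turn, and the second at 0.41 to 0.43 without each T.chuii library. In T.chuii vs CON the difference was 0.01, and between -0.14 and 0.09. Leaving out T.chuii 2 or CON 2, which turned the sign of S-phase medians, left these differences at -0.36 and 0.37. The first 2 comparisons share the DES libraries, so both differences draw on the same DES values.

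**Figure D5:**
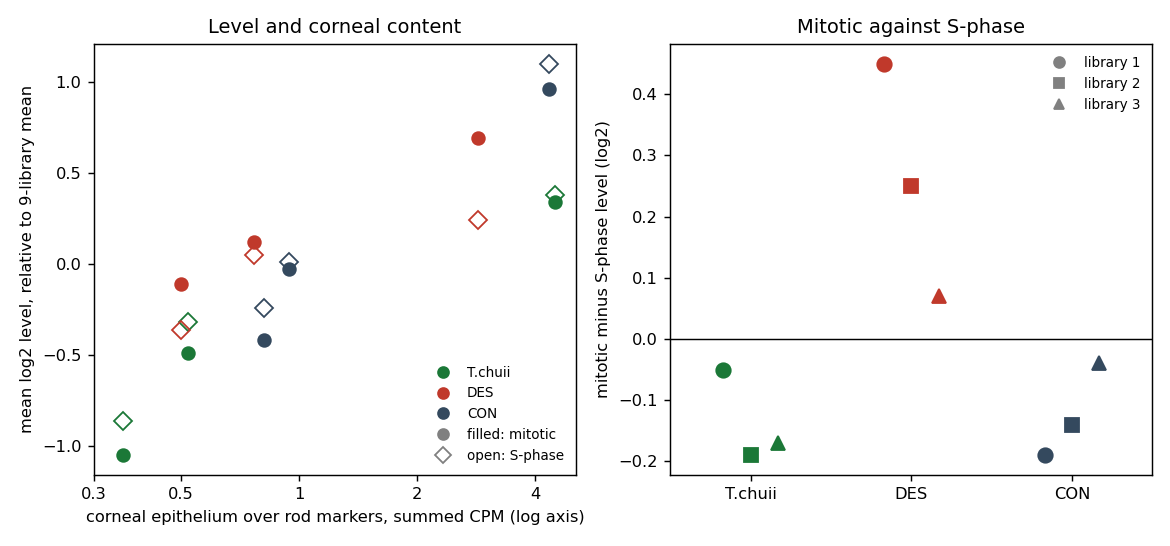
Left, mean log2 level of the mitotic genes (filled circles) and S-phase genes (open diamonds) of each library against the ratio of corneal epithelial to rod markers (log axis), coloured by group. Right, mitotic minus S-phase level of each library for T.chuii, DES and CON. Levels are highest in the 3 libraries with ratios of 2.86 to 4.48, and the DES libraries (0.07 to 0.45) lie above the T.chuii (-0.19 to -0.05) and CON (-0.19 to -0.04) libraries on the right.

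Other mitotic genes had medians near those of the mitotic members. Of 46 other mitotic genes, 45 had a change below 0 in T.chuii vs DES (median -0.58), 44 in T.chuii vs CON (median -0.53) and 20 in DES vs CON (median 0.01). Kif18a, a kinesin that aligns chromosomes, had 7.69, 6.17 and 7.24 CPM in T.chuii libraries against 11.2, 8.98 and 11.7 CPM in DES libraries. The groups did not overlap, as held in the same direction for 2.49% of all genes. The log2 fold change of Kif18a was -0.58 ± 0.24 with an adjusted p of 1.0. In DES vs CON Kif18a was at 0.27 ± 0.23, and Cit, the citron kinase of cytokinesis, at -0.30 ± 0.22. Depdc1a, a cell cycle gene, was at -1.10 ± 0.51 in T.chuii vs DES. Kif18b was at -1.34 ± 0.60 and Troap, a spindle protein, at -1.18 ± 0.59 in T.chuii vs CON, both with adjusted p = 0.986.

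Of 41 other DNA replication genes, 36 were below 0 in T.chuii vs DES, 35 in T.chuii vs CON and 25 in DES vs CON, with medians of -0.16, -0.24 and -0.04. The S-phase members had medians of -0.21, -0.62 and -0.35. In DES vs CON the wider mitotic and replication lists, at 0.01 and -0.04, thus did not show the gap between mitotic and S-phase members. In T.chuii vs CON the wider lists differed, at -0.53 and -0.24, while the members were almost level, at -0.61 and -0.62. Prim2, a primase subunit, was at -0.33 ± 0.29 and Dtl, which targets proteins on chromatin-bound Pcna for destruction, at -0.60 ± 0.58 in T.chuii vs DES. Dtl was at -0.93 ± 0.56 and Pold1, the catalytic subunit of DNA polymerase delta, at -0.57 ± 0.35 in T.chuii vs CON. Lig1, the ligase that joins Okazaki fragments, was at -0.48 ± 0.30 and Chaf1a, a histone chaperone of the fork, at -0.53 ± 0.43 in DES vs CON. No replication gene had an unadjusted p under 0.05 in any comparison.

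G1 cyclins, their kinases and E2F and Myc factors, 20 genes that act before commitment to division, were mixed. Below 0 were 11 in T.chuii vs DES, 15 in T.chuii vs CON and 17 in DES vs CON, with medians of -0.03, -0.24 and -0.22. Mycn, a Myc family transcription factor, had 5.15, 7.64 and 6.39 CPM in T.chuii libraries, 7.78, 5.68 and 6.52 CPM in DES libraries and 3.87, 2.48 and 5.0 CPM in CON libraries. All T.chuii and DES libraries lay above all CON libraries, but the share of all genes with that order was not counted. The log2 fold change of Mycn was 0.80 ± 0.32 in T.chuii vs CON (adjusted p = 0.986) and 0.86 ± 0.32 in DES vs CON (adjusted p = 1.0). Myc itself had 14.0, 7.88 and 6.81 CPM in T.chuii libraries, 18.4, 14.2 and 9.86 CPM in DES libraries and 15, 20.1 and 12.3 CPM in CON libraries, with log2 fold changes of -0.63 ± 0.35 in T.chuii vs DES and -0.78 ± 0.34 in T.chuii vs CON. Ccnd2, cyclin D2, was at 0.44 ± 0.31 in T.chuii vs DES and E2f4 at -0.33 ± 0.23 in DES vs CON.

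Brakes on the cycle did not mirror the members. Of 9 CDK inhibitors and pocket proteins, 7 were below 0 in each comparison, with medians of -0.07 in T.chuii vs DES, -0.24 in T.chuii vs CON and -0.11 in DES vs CON. Cdkn1a, which encodes the inhibitor p21, had 150, 66.4 and 58.4 CPM in T.chuii libraries, 105, 62.6 and 76.4 CPM in DES libraries and 123, 140 and 100 CPM in CON libraries. Its log2 fold change was -0.52 ± 0.35 in T.chuii vs CON and -0.59 ± 0.35 in DES vs CON. Rbl1, the pocket protein p107, was at -0.51 ± 0.31 in T.chuii vs CON. Cdkn2c was at 0.36 ± 0.24 in DES vs CON, and Cdkn2b at -0.48 ± 0.47 and Cdkn1c at 0.33 ± 0.35 in T.chuii vs DES.

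All 14 markers of corneal epithelium had a change below 0 in each comparison, with medians of -0.55 in T.chuii vs DES, -0.89 in T.chuii vs CON and -0.36 in DES vs CON. In DES vs CON they lay on the side of the S-phase genes, while 19 of 28 mitotic genes were above 0. Rod markers were below 0 for 12 of 13 genes in T.chuii vs DES (median -0.27), 10 in T.chuii vs CON (-0.18) and 2 in DES vs CON (0.13). All 9 lens markers were above 0 in each, with medians of 1.5, 9.12 and 7.67, as were all 12 fast skeletal muscle markers, with medians of 1.41, 2.46 and 0.99. Macrophage and microglial markers were above 0 for 10 of 11 genes in T.chuii vs DES (median 0.39), 6 in T.chuii vs CON (0.13) and 0 in DES vs CON (-0.29). The 5 lymphocyte markers measured summed to 4.88 to 7.29 CPM in T.chuii libraries, 4.84 to 10.4 in DES libraries and 3.44 to 8.37 in CON libraries, and 5 neutrophil markers to 11.2 to 15.9, 7.80 to 50.0 and 8.86 to 25.3 CPM in those groups. The 5 erythroid markers summed to 285 to 2841, 379 to 587 and 158 to 891 CPM. The part that each of these tissues had in the values of the 39 genes was not tested, beyond the fits with fewer cornea-rich libraries and with the corneal-to-rod covariate.

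Several members lie over another gene on the mouse genome, and no source used here says whether counting used strand. Among them are Ccna2 with Exosc9, Aurka with Cstf1, Cdc20 with Elovl1, Kif20a with Brd8 and Cdc23, Nusap1 with Oip5, Prc1 with Rccd1 and Mcm7 with Ap4m1. Reads in those overlaps may have been given to either gene. None of Mki67, Ccnb1, Cdk1, Pcna and Mcm2 overlapped another annotated gene.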

How the data were processed

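The authors deposited a read count and an FPKM value per gene and library, per the file headers. The submitters' processing notes name StringTie 2.1.3b, HISAT2 2.1.0, Bowtie2 2.3.4.1, Trimmomatic 0.38, FastQC 0.11.7 and the build mm10, and the labels' protocols a stranded mRNA kit; no source used here describes the counting step. Rows of the deposited tables vary in width, so both values were read from the right end, and the columns did not pass a unit check as counts. Limma-voom (limma 3.58.1, R 4.3.3) on these counts was therefore the main test, with all 9 libraries in 1 fit, 6 residual degrees of freedom, and p was adjusted by Benjamini-Hochberg over 21287 genes at 0.05. Genes were kept at the equivalent of 10 reads in a median library in at least 3 libraries and 15 reads in total. CPM use library sizes scaled by TMM. The fit was tested on simulated data. Tables were handled with Python 3.11.15, pandas 2.3.3 and matplotlib 3.10.9.

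The members and lists were chosen with earlier results of these data known. Fold changes are printed for Mki67, Top2a, Ccnb1, Cdk1, Pcna and Mcm2 and, in each comparison, for the 4 mitotic and 3 S-phase members, and the 2 genes of each other pathway list, with the smallest p. Over all genes, deviations from the group means correlated between same-numbered T.chuii and DES libraries (r = 0.55, 0.34 and 0.17). This pairs them by the data alone, since the file headers number the libraries otherwise, and it is weak for the third pair. T.chuii and CON libraries (r = -0.29, -0.37 and 0.29) and DES and CON libraries (r = -0.29, -0.24 and 0.22) were not paired. The alternatives were other scaling, no filter, FPKM on a log2 scale with a pseudocount of 1 or 0.1, the replicate block, 2 groups only, each library left out, and the corneal-to-rod ratio. Neither a promoter nor a motif entered any fit.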

Additional observations from a re-analysis of the deposited data

How the results depend on the processing

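No member passed the test under any alternative. The number of genes called of all tested was 0 in each comparison and became 12 in T.chuii vs CON with only the 2 groups compared, and 1 in T.chuii vs DES and 1 in T.chuii vs CON (AA386476 both times) with the 3 cornea-rich libraries left out. With the replicate block within the DES and T.chuii groups it was 2. Leaving out each library in turn gave 0 to 15 calls in DES vs CON, 0 to 0 in T.chuii vs DES and 0 to 17 in T.chuii vs CON, with 15 and 17 reached without DES 2. The cause was not tested. The replicate block over all 9 libraries gave mitotic medians of -0.62 in T.chuii vs DES, -0.57 in T.chuii vs CON and 0.08 in DES vs CON, and S-phase medians of -0.20, -0.60 and -0.35; it changed no other call.

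Directions of several named members turned, as did the mitotic median in DES vs CON, which ran from -0.19 to 0.48 with a library left out. Pcna in T.chuii vs CON, at 0.03, became -0.05 in both fits on log2 FPKM and ran from -0.09 to 0.23 with a library left out. Leave-one-out ranges in DES vs CON were -0.18 to 0.61 for Mki67, -0.20 to 0.59 for Top2a, -0.06 to 0.66 for Ccnb1, -0.03 to 0.49 for Cdk1, -0.13 to 0.20 for Pcna and -0.77 to 0.04 for Mcm3. In T.chuii vs DES they were -0.16 to 0.16 for Pcna, -0.47 to 0.03 for Mcm2, -1.05 to 0.03 for Rrm2 and -0.47 to 0.05 for Tyms. In T.chuii vs CON they were -0.59 to 0.19 for Mki67 and -0.74 to 0.10 for Cdk1. With 3 libraries per group and medians that moved with T.chuii 2 and CON 2, precision was limited by the spread between libraries rather than by depth.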
